A study of Ovis aries with 2 samples.

Results

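Shallow ACRV1-positive barcodes of the control testis library are described here, that is, barcodes of at least 500 and fewer than 2000 unique molecular identifiers (UMIs) that hold at least 1 UMI of ACRV1 and at most 1 UMI of SPEM1. They numbered 401 of the 7030 control barcodes (5.70%, exact binomial 95% interval 5.17 to 6.27) and of the 15839 barcodes of the series. The series holds 2 single-cell libraries of sheep (Ovis aries) testis, both labelled 8 months, one labelled ZEA0.75 and one labelled Control. ZEA commonly stands for zearalenone, an oestrogen-like toxin of Fusarium moulds, but the labels do not spell it out. They give no unit for the number, no animal count, and no word on whether animals or tissue were exposed. The chemistry of both was 10x Genomics 3′ V3, in which each captured RNA molecule carries a tag, so that reads copied from it are counted once.

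ACRV1 encodes an acrosomal vesicle protein made by round spermatids, the haploid cells that follow meiosis, and SPEM1 is a gene of later, elongating spermatids. Round spermatids build the acrosome, a secretory vesicle filled through the endoplasmic reticulum and Golgi, while they begin the flagellum and store messages for later translation. A barcode with few UMIs may be a small cell, a damaged cell, a part of a cell or a droplet of free RNA, and the counts alone do not tell these apart.

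The shallow set was set against 1099 deep control barcodes with 5000 or more UMIs, at least 1 UMI of ACRV1 and SPEM1 under 1000 CPM (counts per 1000000 counts of the same sum). The shallow barcodes had a median of 1089 UMIs (lowest 500, highest 1993) and 743 genes, and the deep barcodes a median of 12961 UMIs (lowest 5004, highest 55721) and 3190 genes. UMIs were summed over the barcodes of each set, 446646 in the shallow sum and 16470614 in the deep sum, and scaled to CPM. Thinned to 500 UMIs each, shallow barcodes held a median of 398 genes and deep barcodes 395. With 1 library there is no replicate and no test: intervals on CPM are exact Poisson and those on ratios are exact conditional binomial, at 95%, and they cover counting error only. The words higher and lower therefore describe these 2 sums of 1 library.

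The terms of the rule are not results. ACRV1 was at 1 UMI in 300 members, 2 in 74 and 3 or more in 27, with a highest count of 6, and SPEM1 was at 0 in 206 members and at 1 in 195. Just outside the rule lay 85 ACRV1-positive barcodes of the same depth with 2 SPEM1 UMIs, and 8 barcodes at or just above 2000 UMIs that met the other terms, against 6 members in the last 100 UMIs below it. A demand for 1 ACRV1 UMI is stricter for a barcode of 1089 UMIs than for one of 12961. The ACRV1 level was 1216 CPM in the shallow sum, against 263.6 CPM in the deep sum, and part of that gap is set by the rule. Over all barcodes with the same SPEM1 limits, whatever their ACRV1, it was 341.9 CPM in the 1623 shallow ones and 163.5 CPM in the 1895 deep ones.

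The label was compared with marker lists. The list of acrosome-phase round spermatid markers, ACRV1 left out, summed to 14246 CPM (13898 to 14601) in the shallow set, against 9897 CPM in the deep set, with all 19 measured members above 0 in both. This list as set names LCA5 and IL13RA2, which had been proposed as markers of these barcodes from the same data. Its sums are therefore a description and no independent check of the label. Elongating spermatid markers summed to 11036 CPM in the shallow set and 13518 CPM in the deep set. Late spermatocyte markers stood at 4635 CPM in the shallow set, against 4445 CPM in the deep set, and early spermatocyte markers at 1079 CPM, against 721 CPM. Spermatogonia markers summed to 461 CPM, against 311 CPM, nearly all of it DDX4, a gene that later germ cells also express, and 8 of 11 members, KIT and GFRA1 among them, were at 0 in the shallow set. Germ cell markers were also present in other shallow control barcodes. In those with no ACRV1 and the same SPEM1 limit, acrosome-phase markers summed to 10497 CPM and elongating spermatid markers to 11849 CPM. Late and early spermatocyte markers stood there at 4331 and 1047 CPM. In shallow barcodes rich in mitochondrial UMIs, described below, these sums were 4735, 8548, 2681 and 584 CPM in the same order. Among these sets acrosome-phase markers were highest in the shallow set, but the sums do not tell cells from free RNA.

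Markers of somatic cells were few in the shallow set. The 6 Leydig cell markers had 0 UMIs, for which 3 counts, the floor used here, are 6.72 CPM and the exact Poisson upper bound is 8.26 CPM. Sertoli cell markers summed to 139 CPM in the shallow set and 97.6 CPM in the deep set, of which AMHR2 made 98.5 and 91.7 CPM, and FSHR, SOX9 and WT1 were at 0 in the shallow set. Leukocyte markers summed to 51.5 CPM in the shallow set, against 4.37 CPM in the deep set: C1QA, a complement gene of macrophages, held 15 of the 23 UMIs, and PTPRC, CD74, CSF1R and 4 other members were at 0. Peritubular myoid markers summed to 15.7 CPM in the shallow set, against 4.01 CPM in the deep set, endothelial markers to 4.48 CPM, against 2.31 CPM, stromal fibroblast markers to 71.7 CPM, against 122 CPM, and perivascular markers to 8.96 CPM, against 23.6 CPM.

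Of 3635 genes with at least 20 observed or expected UMIs in the shallow sum, 437 (12%) were at least 2-fold higher in the shallow set and 137 (3.77%) at least 2-fold lower. The median log2 ratio, shallow over deep, was -0.04, and the other tested genes lay within 2-fold. Of the 15 most abundant genes of the shallow set, DKKL1, CLGN, CALR3 and 3 identifiers without a symbol were at least 2-fold higher. UBB, a polyubiquitin gene, stood at 8203 CPM in the shallow set, against 8137 CPM in the deep set, and HSPB9, a testis small heat shock protein gene, at 4158 CPM, against 3999 CPM. Identifiers without a symbol made up 97 of the genes past 2-fold higher and 27 of those past 2-fold lower.

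**Figure D1:**
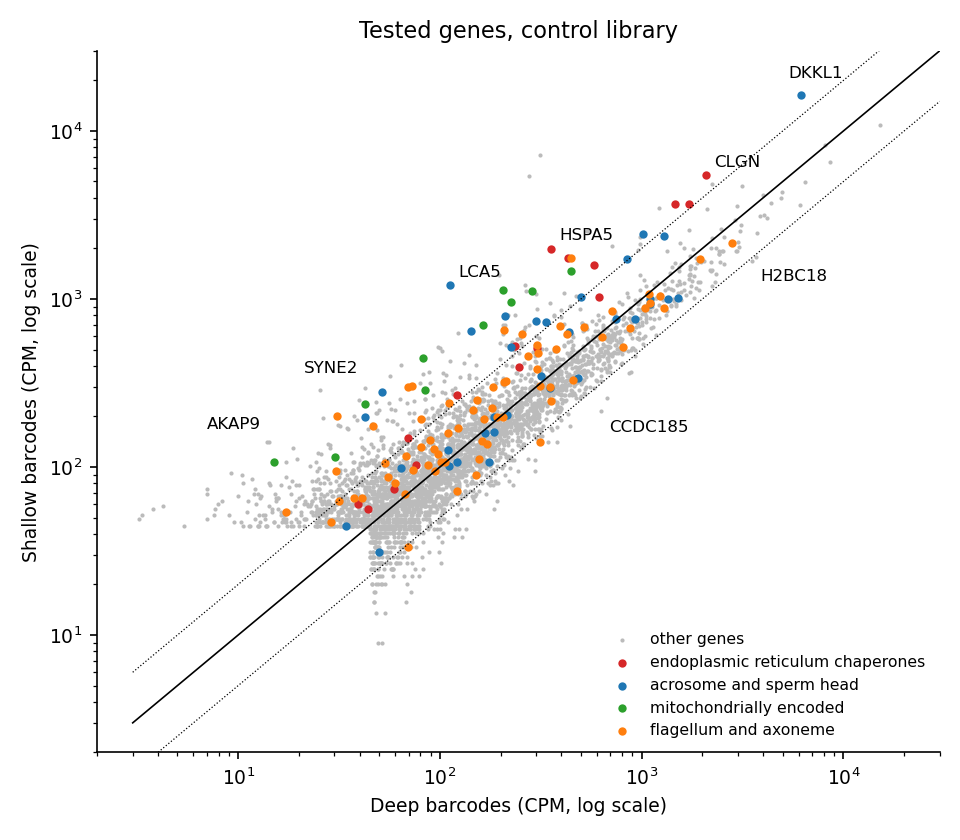
Level of each tested gene in the shallow sum (vertical axis, CPM, log scale) and in the deep sum (horizontal axis, CPM, log scale) of the control library. The solid line marks equal levels and the dotted lines 2-fold. Endoplasmic reticulum chaperones and mitochondrially encoded genes lie above the solid line throughout, and LCA5, SYNE2 and AKAP9 stand well above the upper dotted line.

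The highest named gene by ratio was SYNE2, which encodes nesprin-2, a protein that ties the nuclear envelope to the cytoskeleton. It stood at 287 CPM (239 to 341) in the shallow set, against 25.5 CPM in the deep set, a log2 ratio of 3.49 (3.19 to 3.78). LCA5, the gene of the ciliary protein lebercilin, came next at 1205 CPM in the shallow set and 112 CPM in the deep set (log2 3.43, 3.29 to 3.57). LCA5 and IL13RA2, a decoy receptor for interleukin 13, had been proposed as markers of these barcodes from the same data, so their values are a description. IL13RA2 stood at 278 CPM in the shallow set, against 51.4 CPM in the deep set (log2 2.43).

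AKAP9, a Golgi and centrosome scaffold that binds protein kinase A, was at 141 CPM in the shallow set and 14.2 CPM in the deep set (log2 3.31). CCDC18 (log2 2.66), the actin-binding protein gene SVIL (2.51), the ubiquitin ligase gene MYCBP2 (2.45) and the centriole appendage gene SCLT1 (2.29) were also among the 15 highest.

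Per barcode, LCA5 had a median of 1 UMI in both sets although the median depths were 1089 and 12961 UMIs, with a range of 0 to 7 UMIs in the shallow set and 0 to 16 in the deep set. After thinning every barcode to 500 UMIs, LCA5 was seen in 158 of 401 shallow barcodes (39.4%, 34.6 to 44.4) and in 70 of 1099 deep barcodes (6.37%). In 134 mitochondria-rich shallow barcodes of the same library, which had 5% or more mitochondrial UMIs, a median of 914 UMIs and lower acrosome-phase markers (4735 CPM), the share was 5.97%, and 6 of these barcodes were also members of the shallow set. In the 1222 shallow barcodes without ACRV1 it was 28.3%, closer to the members. Without thinning the shares were 62.3% in the shallow set and 70.4% in the deep set. SYNE2 was seen in 11.7% of thinned shallow barcodes, 0.728% of thinned deep barcodes, 2.24% of thinned mitochondria-rich barcodes and 10.2% of thinned shallow barcodes without ACRV1. LCA5 was thus seen across a large share of the shallow barcodes.

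Because deep ACRV1-positive barcodes run through a long stretch of spermatid development, they were split into 3 groups of equal size, or tertiles, by the CPM of HMGB4, a spermatid chromatin protein gene, with limits at 4290 and 6321 CPM. HMGB4 itself stood at 3990 CPM in the shallow set, against 1619, 5384 and 7439 CPM in the lowest, middle and highest tertile. By this level the shallow set lay between the lowest and the middle. Per barcode, HMGB4 had a median of 4 UMIs in the shallow set. It had 3 in shallow barcodes without ACRV1 and 3 in mitochondria-rich ones. Whether HMGB4 places barcodes of this depth in spermatid development was not tested. Genes whose shallow level lay outside the sums of all 3 tertiles were then counted. Barcodes within a tertile vary, and whether some selection of them matches the shallow levels was not tested. Of 3420 genes tested in this way, 209 (6.11%) were at least 2-fold higher in the shallow set than in every tertile and 3 (0.0877%) at least 2-fold lower than in every tertile. Among the genes tested, those at least 2-fold outside all 3 tertiles were therefore nearly all on the high side. A gene could enter this count on its shallow UMIs alone, whereas a lower call needed enough expected UMIs from every tertile. How much of the split this rule sets was not tested.

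The 3 genes below every tertile were COMMD6, GNB1, which encodes a G protein beta subunit, and CARMIL2, a regulator of actin capping. Each rested on few molecules: COMMD6 had 12 UMIs, GNB1 13 and CARMIL2 10. COMMD6 stood at 26.9 CPM in the shallow set, against 61.8 CPM in the deep set, and GNB1 at 29.1 CPM, against 68.6 CPM.

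Among genes above every tertile were SYNE2, LCA5, AKAP9, SVIL, IL13RA2, CCNYL1, CCDC18, HYDIN and MYCBP2, the highest by a rule added after values had been seen. SYNE2 stood at 287 CPM in the shallow set, against 26.1, 31.5 and 19.5 CPM in the lowest, middle and highest HMGB4 tertile. LCA5 stood at 1205 CPM, against 154, 128 and 58.8 CPM. CCNYL1, a cyclin Y-like gene, stood at 358 CPM, against 88.2, 72.5 and 85.1 CPM. For these genes the level in the shallow barcodes was several times that of any deep tertile, whichever way the gene ran along HMGB4.

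**Figure D2:**
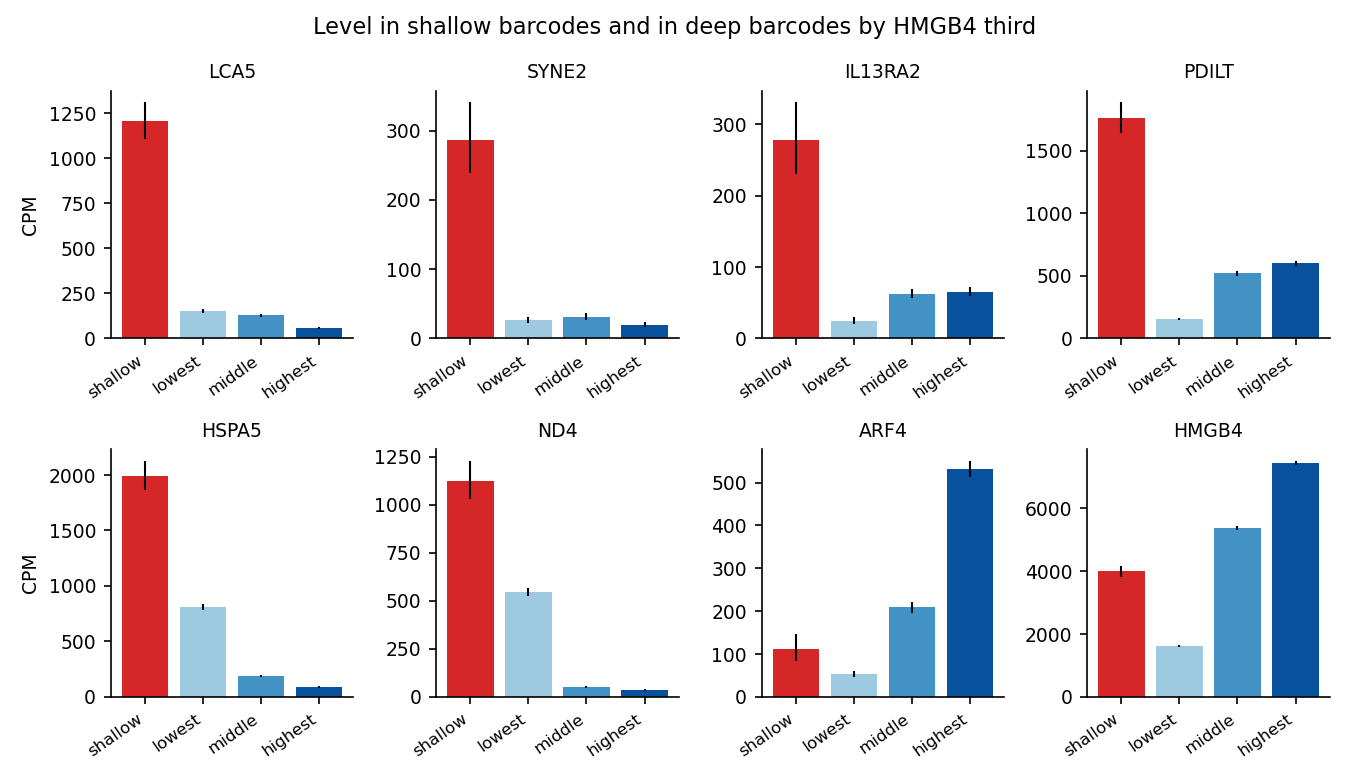
CPM of 8 genes in the shallow sum (red) and in the deep sums of the lowest, middle and highest HMGB4 tertile (blue), control library, with exact Poisson 95% intervals as bars. LCA5, SYNE2, IL13RA2, PDILT, HSPA5 and ND4 stand above every tertile, whereas ARF4 and HMGB4 lie between the tertiles.

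Chaperones of the endoplasmic reticulum were the list of nuclear-encoded genes with the highest median. Of 23 members in the files 16 had enough UMIs to be tested. Of these, 9 were at least 2-fold higher in the shallow set and none at least 2-fold lower (12% and 3.77% of all tested genes were). All 16 had ratios above 0, and the median log2 ratio was 1.10, against -0.04 over all tested genes. The list summed to 21348 CPM in the shallow set and 8459 CPM in the deep set. Without its most abundant member CLGN it still summed to 15919 CPM in the shallow set, against 6383 CPM in the deep set.

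The 3 general chaperones led by HSPA5 were all higher. HSPA5, the BiP chaperone that also gauges unfolded protein, stood at 1993 CPM (1864 to 2128) in the shallow set and 353 CPM in the deep set (log2 2.50, 2.39 to 2.60). HSP90B1, the reticulum form of HSP90, stood at 3665 CPM, against 1461 CPM (log2 1.33), and the lectin chaperone gene CALR at 1592 CPM, against 581 CPM (log2 1.45). The testis chaperones did the same. CLGN, encoding calmegin, which in mouse sperm is needed for surface ADAM proteins, stood at 5429 CPM in the shallow set and 2076 CPM in the deep set (log2 1.39). PDILT, a testis disulfide isomerase gene, stood at 1758 CPM, against 430 CPM (log2 2.03), and CALR3 at 3692 CPM, against 1707 CPM (log2 1.11).

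The transcription factor members, which act in the unfolded protein response, were near the deep level: ATF4 had a log2 ratio of 0.33 (-0.22 to 0.83) and ATF6 0.35 (-0.28 to 0.93). DDIT3 had 3 UMIs in the shallow sum and HERPUD1 had 6, under the minimum for a comparison.

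The chaperones differed in how they ran along HMGB4. HSPA5 stood at 811, 187 and 88.3 CPM in the lowest, middle and highest tertile, all below the shallow 1993 CPM, while PDILT ran the other way at 155, 520 and 598 CPM, all below the shallow 1758 CPM. HSPA5 and PDILT were the 2 list members at least 2-fold above every tertile. Against the lowest tertile alone the list's median log2 ratio was 0.31, with 3 of 16 members at least 2-fold higher (23.5% of all tested genes were), and against the middle and highest tertiles it was 1.76 and 1.75, with 13 and 12 of 16 members at least 2-fold higher (15.5% and 22.6% of all tested genes were). The list was therefore farther above the middle and highest tertile than above the lowest, where it summed to 12983 CPM.

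**Figure D3:**
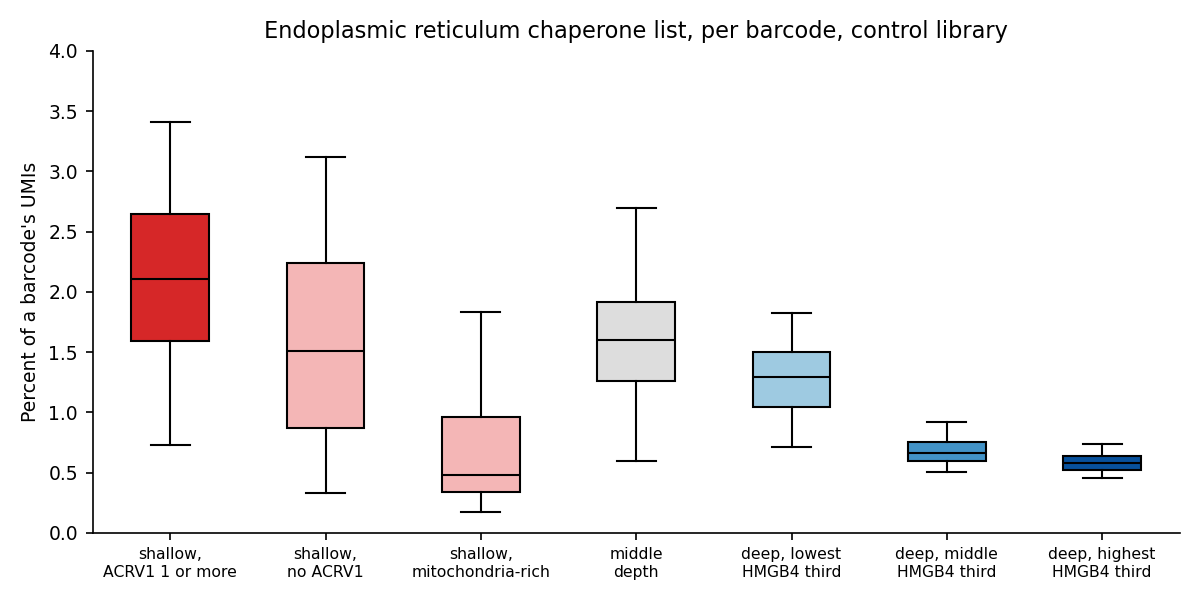
Percent of each control barcode's UMIs that came from the endoplasmic reticulum chaperone list, by set. Boxes span the quartiles with the median inside, and whiskers run from the 5th to the 95th percentile of barcodes. The median was 2.11% in the shallow ACRV1-positive set, against 1.51% in shallow barcodes without ACRV1 and 1.29% in the lowest deep tertile.

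Per barcode, the chaperone list took a median of 2.11% of UMIs in the shallow set (lowest 0.199%, highest 4.22%) and 0.684% in the deep set (lowest 0.203%, highest 2.27%). The ranges overlapped, but the lower quartile of the shallow barcodes, 1.59%, lay above the upper quartile of the deep barcodes, 1.06%. Thinned to 500 UMIs, HSPA5 was seen in 58.9% of shallow barcodes, 14.5% of deep barcodes and 27.6% of mitochondria-rich barcodes, and CLGN in 87.3%, 55.8% and 44.8%. In shallow barcodes without ACRV1 the shares were 43.0% for HSPA5 and 77.2% for CLGN.

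Other genes of the secretory route were grouped by symbol after their values had been seen, so the counts describe them only. Of 23 tested genes of the translocon, signal peptidase, oligosaccharyltransferase and membrane insertion machinery, 7 were at least 2-fold higher and 0 at least 2-fold lower. Over all tested genes the shares were 12% and 3.77%. The median log2 ratio was 0.49, against -0.04 over all tested genes. Against the lowest HMGB4 tertile alone, 5 of 26 were at least 2-fold higher and 2 lower, with a median of -0.03. Of all genes tested against that tertile, 23.5% were higher and 16.4% lower. EMC7, of the membrane insertion complex, stood at 168 CPM in the shallow set, against 35.2 CPM in the deep set, and SSR1, of the translocon-associated complex, at 403 CPM, against 151 CPM. Of 17 tested genes of transport between the reticulum and the Golgi, 4 were at least 2-fold higher and 0 at least 2-fold lower, with a median of 0.64. Against the lowest tertile 3 of 18 were higher and 2 lower, with a median of 0.30. KDELR3, a receptor that returns reticulum proteins from the Golgi, stood at 51.5 CPM, against 7.59 CPM, and TM9SF4 at 181 CPM, against 60.9 CPM. PIGN and PIGO, which build the GPI anchor, had log2 ratios of 1.27 and 1.64. TMX1, a membrane-bound thioredoxin of the reticulum, stood at 3468 CPM in the shallow set, against 1218 CPM in the deep set (log2 1.51).

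Cytosolic chaperones lay close to the median of all genes. None of 21 tested members was at least 2-fold higher or lower (12% and 3.77% of all tested genes were), and the median log2 ratio was -0.12. HSP90AA1 had the highest ratio, 0.70, and PTGES3 the lowest, -0.93.

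Of 34 tested acrosome and sperm head genes, 12 were at least 2-fold higher and none at least 2-fold lower (12% and 3.77% of all tested genes were), and the median log2 ratio was 0.16. LCA5 and IL13RA2 were placed in this list as proposed markers, and without them 10 of 32 were at least 2-fold higher, with a median of 0.11. The list summed to 37578 CPM in the shallow set, against 21068 CPM in the deep set. DKKL1, whose product lies in the acrosome of mouse and human sperm, made much of this as the most abundant named transcript, with 16346 CPM in the shallow set and 6137 CPM in the deep set (log2 1.41). Without DKKL1 the list summed to 21232 CPM, against 14931 CPM.

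The ADAM genes, a family with surface adhesion proteins of sperm, were gathered after values were seen. Of 5 tested, 4 were at least 2-fold higher (12% of all tested genes were), and 2, ADAM18 and ADAM32, lay above every tertile. ADAM18 stood at 197 CPM in the shallow set, against 42.5 CPM in the deep set (log2 2.21). ADAM32 stood at 645 CPM, against 142 CPM (2.18), and ADAM2 at 795 CPM, against 209 CPM (1.93). EQTN, encoding equatorin of the acrosomal membrane, had a log2 ratio of 1.29, ZPBP, a zona-binding protein of the acrosome, 1.27, and SPESP1, an equatorial segment protein, 1.04. The lowest of the list were AGFG1 (log2 -0.71) and ACTRT1 (-0.67), and other genes of the sperm head cytoskeleton, picked out after values were seen, also lay below 0, ACTRT3 at -0.58, ACTRT2 at -0.51 and CAPZA3 at -0.23. IZUMO1, the egg-binding protein gene, was at 204 CPM in the shallow set and 214 CPM in the deep set (log2 -0.07, -0.39 to 0.23), and SPACA3 at 761 CPM, against 746 CPM.

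**Figure D4:**
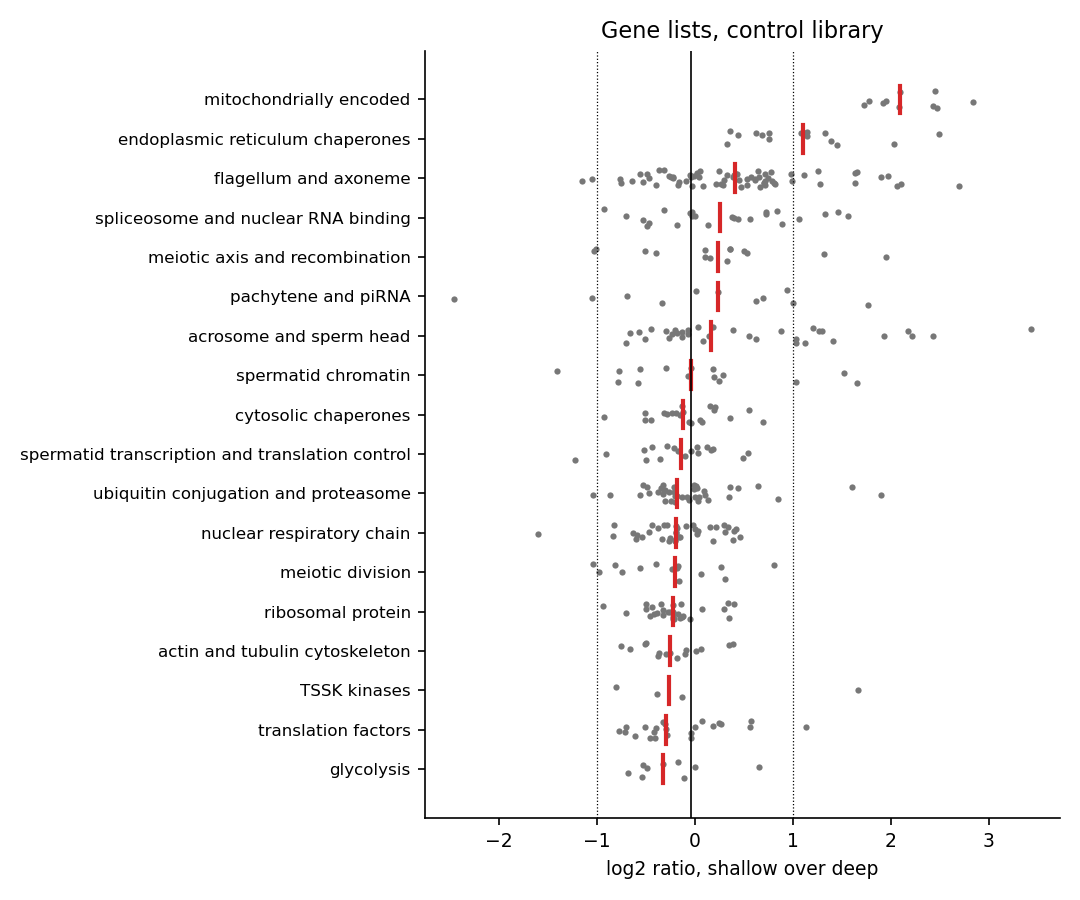
Log2 ratio, shallow over deep, of each tested member (grey points) of the 18 gene lists in the control library, ordered by the list median (red bars). The solid line marks the median of all tested genes, -0.04, and the dotted lines 2-fold. The mitochondrially encoded list (median 2.09) and the endoplasmic reticulum chaperones (1.10) stand to the right, and the other medians lie between -0.32 and 0.41.

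Of 70 tested flagellar genes, 11 were at least 2-fold higher and 2 at least 2-fold lower, shares near those of all tested genes (12% and 3.77%), with a median log2 ratio of 0.41. The axonemal dynein heavy chains, the motor subunits of the flagellum, were all higher when gathered by symbol after the fact: 8 of 8 tested, of 11 in the files, were at least 2-fold higher, and their sum was 1816 CPM in the shallow set, against 492 CPM in the deep set. DNAH7 stood at 177 CPM in the shallow set, against 31.2 CPM in the deep set (log2 2.50), DNAH3 at 300.0 CPM, against 69.8 CPM (2.10), and DNAH17 at 305 CPM, against 72.7 CPM (2.07). HYDIN, of the central pair of the axoneme, was the highest of the list at 202 CPM, against 31.0 CPM (log2 2.70), and FSIP2, a large protein of the fibrous sheath, stood at 1746 CPM, against 444 CPM (1.97). TEKT5, a tektin, and ODF3, of the outer dense fibres, were the lowest, at log2 -1.15 and -1.05.

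Genes of spermatid chromatin had a median close to the deep level, with members past 2-fold on both sides. The chromatin list had 3 of 15 tested members at least 2-fold higher (KDM3A, RNF8 and JMJD1C) and 1 at least 2-fold lower (12% and 3.77% of all tested genes were). Its median log2 ratio was -0.04. TNP1, the transition protein that replaces histones, stood at 450.0 CPM in the shallow set, against 380 CPM in the deep set (log2 0.25, 0.04 to 0.45), and PRM3 at 401 CPM, against 353 CPM. H2BC18, a histone H2B gene, was lower at 1690 CPM in the shallow set, against 3506 CPM in the deep set (log2 -1.05), and stood at 939, 3978 and 5412 CPM along the HMGB4 tertiles. Of the TSSK list, which holds sperm kinases, 1 of 4 tested members was at least 2-fold higher: TSSK3 stood at 416 CPM, against 131 CPM.

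Messages for protein synthesis and energy were slightly lower as groups. Over all tested genes the median log2 ratio was -0.04, with 12% at least 2-fold higher and 3.77% at least 2-fold lower. None of 30 tested ribosomal protein genes passed 2-fold, with a median log2 ratio of -0.22. Of 23 translation factors 1 was at least 2-fold higher, with a median of -0.30, and of 38 nuclear genes of the respiratory chain 1 was at least 2-fold lower, with a median of -0.19. None of 9 glycolysis genes passed 2-fold, with a median of -0.32. The ubiquitin and proteasome list had 2 of 41 at least 2-fold higher and 1 lower (median -0.18), the actin and tubulin list none of 15 (median -0.25), and the list of spermatid transcription and translation control 1 of 18 lower (median -0.14), RFX3 at log2 -1.22.

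The meiotic axis, piRNA and spliceosome lists had few genes past 2-fold in either direction. Of all tested genes, 12% were at least 2-fold higher and 3.77% at least 2-fold lower. The meiotic axis list had 2 of 14 at least 2-fold higher and 2 lower (median 0.24), with the synaptonemal complex gene SYCP1 at 222 CPM in the shallow set, against 57.1 CPM in the deep set (log2 1.96), while SYCP3 had 1 UMI in the shallow sum. The piRNA list had 2 of 11 at least 2-fold higher and 2 lower (median 0.24). In it RNF17 stood at 804 CPM, against 237 CPM (log2 1.77), GTSF1 at 1784 CPM, against 3688 CPM (-1.05), and PIWIL1 had 11 UMIs in the shallow sum. Spliceosome genes had 4 of 24 at least 2-fold higher and none lower (median 0.26), led by the helicase gene DDX17 and the speckle protein gene SON at log2 1.56 and 1.46.

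Meiotic division genes followed the HMGB4 tertiles. Their median was -0.21 against all deep barcodes, with 1 of 14 at least 2-fold lower (3.77% of all tested genes were). Against the lowest tertile it was -1.63, with 12 of 18 lower (16.4% of all tested genes were), and against the highest tertile 1.79. AURKA, the kinase of the spindle poles, stood at 121 CPM in the shallow set, against 523, 66.8 and 33.3 CPM in the lowest, middle and highest tertile. MTNR1A, a melatonin receptor gene, stood at 98.5 CPM in the shallow set, against 95.8 CPM in the deep set (log2 0.04, -0.43 to 0.47).

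The lowest named gene was ZBTB26, a zinc finger gene, at 56.0 CPM in the shallow set, against 184.5 CPM in the deep set (log2 -1.72, -2.35 to -1.16), followed by CSRNP1 (-1.67), C14orf28 (-1.66), GLRB (-1.62), RBM47 (-1.56) and CCDC185 (-1.55). ARF4, a small GTPase of the Golgi, stood at 112 CPM in the shallow set, against 273 CPM in the deep set (log2 -1.29), and ZDHHC19, a palmitoyltransferase gene, at 175 CPM, against 439 CPM (-1.33). Of the 15 lowest named genes, all but COPRS stood higher in the middle and highest tertile than in the lowest. ARF4 stood at 53.0, 209 and 532 CPM in the 3 tertiles and CCDC185 at 135, 640 and 1064 CPM, so that the shallow levels, 112 and 215 CPM, lay above the lowest tertile. COPRS ran the other way, at 80.6 CPM in the shallow set, against 548, 30.2 and 20.9 CPM. Of 4 tested histone-coding genes, gathered after values were seen, 2 were at least 2-fold lower (3.77% of all tested genes were). Their median log2 ratio was -0.86, with sums of 2223 CPM in the shallow set and 4257 CPM in the deep set.

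Mitochondrially encoded genes had the highest list median, log2 2.09, with 10 of 10 tested members at least 2-fold higher in the shallow set (12% of all tested genes were). They summed to 6582 CPM in the shallow set and 1582 CPM in the deep set. Of the 10, only 4 were at least 2-fold higher than in every HMGB4 tertile: ND1, ND2, ND3 and ND4. Per barcode, the median share of mitochondrial UMIs was 0.127% in the shallow set and 0.0308% in the deep set, and the upper quartiles were 0.645% and 0.203%. In the lowest HMGB4 tertile the median share was 0.329%, above that of the shallow set. The shallow sum was uneven over barcodes. In members with ACRV1 at 1, 2 and 3 or more UMIs the list stood at 7362, 6082 and 1245 CPM, the last below the deep sum. Of the 2940 mitochondrial UMIs in the shallow set, the 20 barcodes with most held 46.0%, and 118 members held 0. The list stood at 29096 CPM in the 74 members with 1% or more mitochondrial UMIs and at 1848 CPM in the other 327, a split made on this same share. In the members under 1% the reticulum chaperone list was still at 20990 CPM, LCA5 at 1214 CPM and SYNE2 at 287 CPM. Those 3 excesses were thus little changed without the members of 1% or more. HSPA5 differed, at 1745 CPM in members under 1% and 3170 CPM in the 74 others. TMEM190, of the acrosome list, stood at 2699 and 812 CPM in the same order, and that whole list at 38375 and 33787 CPM.

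A pair of abundant transcripts with high ratios carry an identifier and no symbol. ENSOARG00000000002 stood at 7203 CPM in the shallow set, against 313 CPM in the deep set (log2 4.52), and ENSOARG00000000004 at 5411 CPM, against 275 CPM (log2 4.30). Both were higher still in the mitochondria-rich shallow barcodes, at 28975 and 22236 CPM. The files and the gene table used here do not name them.

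Within the shallow set the chaperone list moved little with depth or with the ACRV1 count. The reticulum chaperone list stood at 20286 CPM in the 171 members of under 1000 UMIs and 21821 CPM in the 230 members of 1000 UMIs or more. LCA5 stood at 1287 CPM in the shallower members and 1168 CPM in the others. With ACRV1 at 1, 2 and 3 or more UMIs the chaperone list stood at 21154, 21435 and 22766 CPM and LCA5 at 1196, 1025 and 1685 CPM, the last over 27 barcodes (1301 to 2148). The 250 members with LCA5 and the 151 without differed more: the chaperone list was at 22855 CPM in members with LCA5 and 18456 CPM in those without, DKKL1 at 17264 CPM and 14585 CPM, and SYNE2 at 341 CPM and 183 CPM.

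Beyond the shallow set, the same transcripts stepped down with depth. In 150 control barcodes of 2000 to under 5000 UMIs with the ACRV1 and SPEM1 terms of the deep set, the chaperone list stood at 15465 CPM and LCA5 at 631 CPM. They stood at 9962 and 165 CPM in barcodes of 5000 to under 10000 UMIs, and at 8290 and 106 CPM in barcodes of 10000 UMIs or more. SYNE2 stood at 276, 291, 216, 28.9 and 25.1 CPM over the 5 depth classes, so its step lay at 5000 UMIs. Against the middle depth the shallow set had 47 genes (1.28%) at least 2-fold higher and 77 (2.1%) at least 2-fold lower of 3673.

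**Figure D5:**
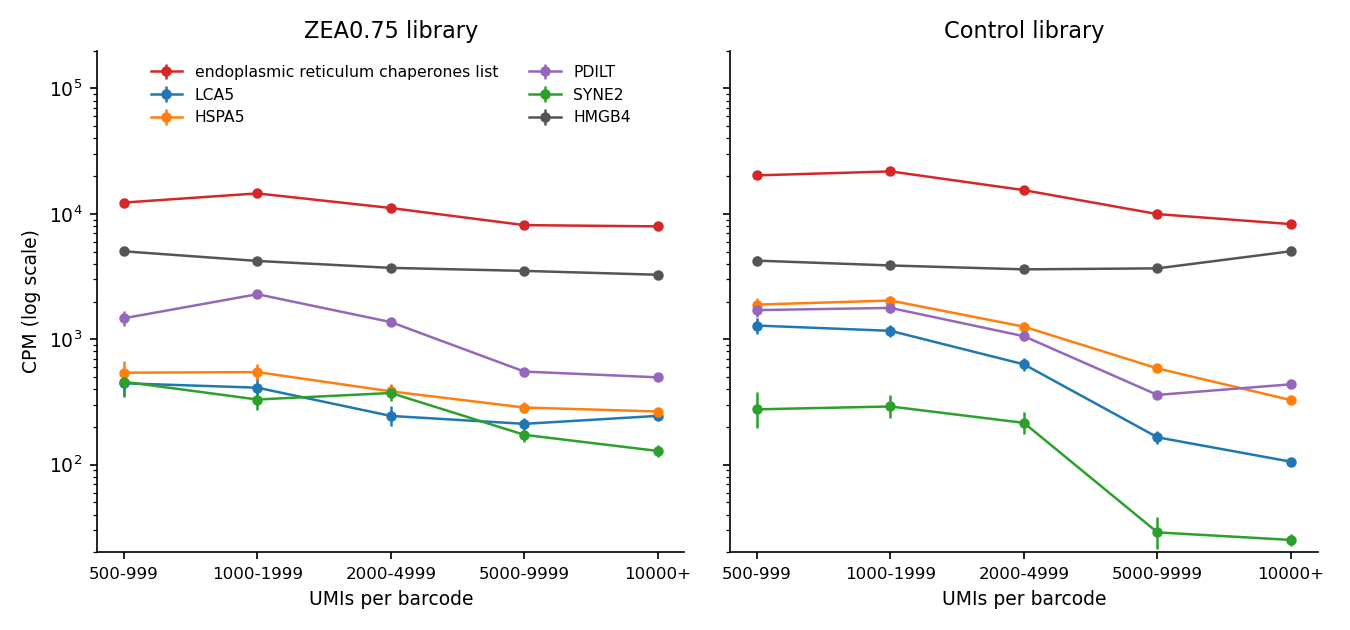
CPM (log scale) of the endoplasmic reticulum chaperone list and of 5 genes in ACRV1-positive, SPEM1-low barcodes by UMIs per barcode, in the ZEA0.75 library (left) and the control library (right), with exact Poisson 95% intervals as bars. In the control library the chaperone list, LCA5, HSPA5, PDILT and SYNE2 are high below 5000 UMIs and lower above, while HMGB4 stays between 3611 and 5036 CPM.

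Against the 1222 barcodes of under 2000 UMIs with 0 ACRV1 and at most 1 SPEM1 UMI, the ACRV1-positive set had 43 genes (1.17%) at least 2-fold higher and 112 (3.04%) at least 2-fold lower of 3688 tested. The chaperone list stood at 21348 CPM with ACRV1 and 16443 CPM without, LCA5 at 1205 and 841 CPM, and SYNE2 at 287 and 202 CPM. Mitochondrially encoded genes stood at 6582 CPM with ACRV1 and 18607 CPM without. Somatic markers were lower with ACRV1 than without: peritubular myoid markers stood at 15.7 and 116 CPM, Sertoli markers at 139 and 261 CPM, and leukocyte markers at 51.5 and 96.4 CPM. High levels of chaperones, LCA5 and SYNE2 were thus found in shallow barcodes with and without an ACRV1 UMI. In the 1153 shallow barcodes with 2 or more SPEM1 UMIs the chaperone list stood at 7855 CPM.

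The same rule in the ZEA0.75 library found 447 shallow and 400 deep barcodes. There is 1 library per group, the matrices were written by different software versions and the shallow ZEA0.75 set held more somatic RNA, so the values stand side by side without a test. Peritubular myoid markers summed to 691 CPM in the shallow ZEA0.75 set, against 15.7 CPM in the shallow control set, and Sertoli markers to 789 CPM, against 139 CPM. The part of these in the ratios below was not tested.

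In ZEA0.75, 793 of 4044 tested genes (19.6%) were at least 2-fold higher in the shallow set and 350 (8.65%) at least 2-fold lower, and 109 of the higher genes were among the 437 of the control library (13.8% of the ZEA0.75 list and 24.9% of the control list, of which 353 were tested in ZEA0.75). Of 3873 genes tested against the 3 ZEA0.75 tertiles, 345 (8.91%) were at least 2-fold above all of them and 126 (3.25%) at least 2-fold below all of them. The reticulum chaperones had a median log2 ratio of 0.76 in ZEA0.75, with 7 of 17 at least 2-fold higher, against 1.10 in the control. They summed to 13832 CPM in shallow and 8010 CPM in deep ZEA0.75 barcodes. PDILT had nearly the same ratio in both libraries, log2 1.97 in ZEA0.75 and 2.03 in the control, while CALR3 had 1.37 in ZEA0.75 and 1.11 in the control. HSPA5 had a ratio of 1.00 in ZEA0.75 and 2.50 in the control, and HSP90B1 0.08 and 1.33.

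LCA5 stood at 423 CPM in shallow and 234.1 CPM in deep ZEA0.75 barcodes (log2 0.85, against 3.43 in the control), SYNE2 at 373 and 143 CPM (1.38, against 3.49), and IL13RA2 at 165 and 66.2 CPM (1.31, against 2.43). Deep ZEA0.75 barcodes thus held more SYNE2 and LCA5 than deep control barcodes, at 143 against 25.5 CPM and 234.1 against 112 CPM. Mitochondrially encoded genes had a median log2 ratio of 2.67 in ZEA0.75 and 2.09 in the control, with 10 of 10 at least 2-fold higher in both. Flagellar genes had medians of opposite sign, -0.37 in ZEA0.75, with 2 of 64 at least 2-fold higher and 7 lower, and 0.41 in the control. Of the 137 genes at least 2-fold lower in the shallow control set, 113 were tested in ZEA0.75, where 22 were at least 2-fold lower and 21 at least 2-fold higher (8.65% and 19.6% of all tested genes were).

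Elongating spermatid markers summed to 12639 CPM in shallow and 11125 CPM in deep ZEA0.75 barcodes, and to 11036 and 13518 CPM in the control. HMGB4 stood at 4482 CPM in shallow and 3349 CPM in deep ZEA0.75 barcodes (log2 0.42), and at 3990 and 4898 CPM in the control (-0.30). Of single genes picked out after values were seen, TNP1 had a log2 ratio of 1.43 in ZEA0.75 and 0.25 in the control, PRM3 1.18 and 0.18, and IZUMO1 1.14 and -0.07.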

How the data were processed

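The authors deposited, for each library, a matrix of whole-number UMI counts without normalization for 27054 genes, 10636 of them without a symbol. Cell Ranger 3.1.0 and STAR appear in the submitters' processing notes. Per the file headers, Cell Ranger 3.1.0 made the ZEA0.75 matrix and version 5.0.0 the control matrix, so version and group cannot be told apart. The sources used here name neither genome build nor annotation. Totals were 22148456 UMIs in 8809 ZEA0.75 barcodes and 53044981 UMIs in 7030 control barcodes. Symbols, barcodes and other feature and barcode columns were read as deposited.

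Counts were summed per set and scaled to CPM (Python 3.11.15, scipy 1.17.1). A gene was tested where its observed or expected shallow sum was at least 20 UMIs, called at 2-fold, and 0 was set to 3 counts in ratios. The arithmetic of the calls was checked on Poisson counts drawn from the deep sum with planted changes of log2 1.5 or 2 in either direction. Of the planted genes 100% were called, and of unchanged genes 0.26%. The simulation held no spread between barcodes and no selection on ACRV1, so it does not bear on those. Doublets were kept: Scrublet (scanpy 1.11.5) marked 205 control barcodes (2.92%), 4 shallow and 40 deep, and 2 ZEA0.75 barcodes (0.0227%), where it has not worked. The libraries share 15 barcode sequences, 1 of them a shallow control member.

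Members, the 18 gene lists and the 12 marker lists were chosen with earlier results of these data known. Named genes are the 15 highest and 15 lowest ratios with a symbol and 50 observed or expected UMIs, the 2 highest and 2 lowest of each list, preset genes, the 15 most abundant, and others said to be chosen after values were seen. List members are also named to describe their list.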

Additional observations from a re-analysis of the deposited data

Results flagged for a closer look

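Named genes were singled out where the shallow over deep ratio passed 2-fold in opposite directions in the 2 libraries. The difference between libraries was not tested, since each is a single sample. PHACTR1 had a log2 ratio of 1.84 in ZEA0.75 and -1.28 in the control, a difference of 3.12. ARF4 had 1.53 in ZEA0.75 and -1.29 in the control, a difference of 2.82. COPRS had 1.46 in ZEA0.75 and -1.27 in the control, a difference of 2.72. CCDC185 had 1.12 in ZEA0.75 and -1.55 in the control, a difference of 2.67. Along the lowest, middle and highest HMGB4 tertile of the deep control barcodes, PHACTR1 stood at 69.8, 230 and 691 CPM, ARF4 at 53.0, 209 and 532 CPM, CCDC185 at 135, 640 and 1064 CPM, and COPRS at 548, 30.2 and 20.9 CPM.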

How the results depend on the processing

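No paired analysis was possible because each group holds 1 library. Of the 3635 genes compared, the counts past 2-fold were 437 higher and 137 lower. Counts that moved by over 1.5 times follow. Higher counts were 243 with each barcode thinned to 500 UMIs, 168 in members under 1000 UMIs, 285 with SPEM1 at 0, 189 with ACRV1 of 2 or more, 207 with a minimum of 50 UMIs and 8810 with no minimum, where a 0 set to 3 counts passes the fold by construction. They were 922 and 834 against the lowest and highest HMGB4 tertile. Lower counts were 209 with deep barcodes thinned to shallow depths and again asked for ACRV1, 78 in members under 1000 UMIs, 83 with ACRV1 of 2 or more, 61 with the minimum of 50, 654 with no minimum, and 644 and 425 against the lowest and highest tertile. Smaller sums leave fewer genes to compare: 168 is of 1695 genes. Genes above every tertile numbered 122 thinned, 84 in members under 1000 UMIs, 135 with SPEM1 at 0, 103 with ACRV1 of 2 or more and 100 with the minimum of 50, against 209. Genes below every tertile numbered 1 without barcodes over 5% mitochondrial UMIs and 0 with the minimum of 50, against 3. The rule chose 206 barcodes with SPEM1 at 0 and 101 with ACRV1 of 2 or more, against 401.

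The reticulum chaperone median, 1.10, was 1.36 with deep barcodes thinned to shallow depths and again asked for ACRV1, 0.31, 1.76 and 1.75 against the lowest, middle and highest tertile, and 0.76 with no minimum. The mitochondrial median, 2.09, was 2.98 with that thinning, 1.59 with ACRV1 of 2 or more, 1.66 without barcodes over 5%, 0.70, 3.92 and 4.84 against the 3 tertiles, and 2.43 with no minimum. The acrosome median, 0.16, was 0.47 with ACRV1 of 2 or more and 1.24 against the lowest tertile. Leaving out Scrublet doublets or shared barcode sequences moved none of 117 named genes outside its interval. Of the other settings, some moved few, such as 4 without barcodes over 5% mitochondrial UMIs and 1 in members of 1000 UMIs or more. Others moved many. Against the lowest, middle and highest tertile 79, 42 and 81 named genes moved, and a further 11, 2 and 2 turned in sign. With that thinning 38 moved and 2 turned, and with ACRV1 of 2 or more 33 moved.

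Against the lowest tertile the sign turned for TEKT5 (1.08), LMNB2 (0.85), PHACTR1 (1.02), KIAA0895L (0.73), ARF4 (1.08), ZDHHC19 (0.62), WWC2 (0.74), TEPP (0.98), CCDC185 (0.67), RBM47 (0.14) and ZBTB26 (0.69). MLH3 turned to 1.03 and 1.03 against the middle and highest tertile and to 0.081 with that thinning. COPRS turned to 1.42 and 1.95 against those tertiles and to 0.61 with that thinning. The cause was not tested. The comparison with all tertiles, and the settings with totals without the mitochondrial, ACRV1 and SPEM1 counts or without shared barcode sequences, were chosen after seeing the data.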
